A study of Mus musculus with 24 samples.

Results

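The mouse mitochondrial genome is a small circle of DNA that encodes 37 genes, and the counts of all of them are described here across 24 libraries of cultured T cells. The members were taken by position, as every gene that the deposited count table places on chromosome MT. They were 13 protein-coding genes, 2 rRNAs and 22 tRNAs, of 56748 genes in the table. Messenger RNA was sequenced in bulk from wild-type (WT) mouse T cells that had been polarized in culture to Th1, Th17 or regulatory (Treg) cells or activated as CD8 cells. Cells had either the solvent DMSO or 0.1 µM of a kappa opioid receptor agonist for at most 5 days, the agonists being derived from perhydroquinoxaline. They are WMS-83-02 (WMS-83 below), WMS-76-04A (WMS-76), WMS-75-13 (WMS-75), WMS-64-07 (WMS-64) and WMS-200-01 (WMS-200). Each cell type had 1 library for each of the 6 treatments, which gives 6 libraries per cell type, 4 DMSO libraries and 20 agonist libraries. These full names are those of the treatment protocol; in some cell types the labels end in another suffix, and libraries were taken as the same compound by the first part of the name. The stated subject of the study is the effect of peripheral agonists of this receptor on T cells.

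The 13 proteins are all subunits of the complexes that carry out oxidative phosphorylation in the inner mitochondrial membrane. Complex I takes electrons from NADH, complex III passes them to cytochrome c, complex IV hands them to oxygen, and ATP synthase uses the proton gradient that results. The rest of each complex is encoded in the nucleus, as are the RNA polymerase, the RNA-binding proteins and the ribosomal proteins that express the mitochondrial genome. Both strands of the circle are transcribed as long precursors, and the tRNAs that lie between the longer genes are cut out to release them. T cells depend on oxidative phosphorylation to differing degrees, and regulatory and memory T cells are known for a larger use of it than effector T cells.

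Library totals lay between 15188284 and 21946887 counts. Levels are in CPM over the library size scaled by TMM. This factor was above 1 in every Treg library and below 1 in every other, so that CPM in Treg is lower than it would be over the plain total. Defining markers followed the labels: Foxp3, the Treg transcription factor, was at 282 ± 79.9 CPM (SD, n = 6) in Treg and at 38.0 CPM or less elsewhere, and Il17f, a Th17 cytokine, was at 831 ± 121 CPM in Th17 and at 3.45 CPM or less elsewhere. Ifng, the Th1 cytokine, was at 592 ± 73.0 CPM in Th1 and 1369 ± 57.3 CPM in CD8, and Cd8a was at 389 ± 17.5 CPM in CD8. In Th17, however, Cd8a was at 84.1 CPM on average, from 33.9 CPM with WMS-83 to 111 CPM with DMSO, against 13.9 CPM in Th1 and 7.27 CPM in Treg on average. The 4 CD8 markers summed to 177 to 440 CPM in Th17, lowest and highest in the same libraries, to 184 to 207 CPM in Th1, to 15.5 to 22.2 CPM in Treg and to 2515 CPM or more in CD8. Their part in the results on Th17 was not tested. The library counted as Th1 with WMS-83 has Th17 in its title and Th1 in its other labels, and Il17f was at 1.97 CPM or less in every Th1 library. Cd4 was at 167 to 196 CPM in the CD8 libraries and at 428 CPM or more in the others. Summed markers of other cell types per library reached 11.8 CPM for B cells, 2.01 CPM for red cells and 3.52 CPM for stromal cells. They ran from 19.4 to 137 CPM for myeloid cells, lowest in Treg, and from 23.3 to 471 CPM for NK cells, highest in CD8. Hbb-bt was at 0 in all Th1, Th17 and Treg libraries, and no B cell or myeloid marker was at 0 throughout a cell type. The Treg libraries stood apart, with 2.31 ± 0.427% of counts on cytosolic ribosomal protein genes against 10.8 to 12.3% on average in the other cell types. In bulk libraries fewer cells of a type and less RNA per cell cannot be told apart, and the number of mitochondria or of their genomes was not measured. The 6 libraries of a cell type carry 6 treatments and nothing says that they came from separate animals or cultures, so p-values between cell types measure only the spread between these libraries, which may be technical. Column names also give each library a WT number, which is not explained. It is 4 in every Th1 library and in no other, so that cell type and WT number cannot be told apart in any comparison with Th1.

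Part of the mitochondrial genome has a near-identical copy on mouse chromosome 1, and this bears on which members the counts resolve. The file lists 7 such copies, which lie next to each other between positions 24650616 and 24655278 in its own coordinates, whose build is not named. In GENCODE M21 transcripts (GRCm38), from which all sequences here were read by gene identifier, every one of the 37 members has the start, the end and the length that the file gives. mt-Co2 (MT:7013-7696, plus strand), which encodes the subunit of complex IV that receives electrons from cytochrome c, matches its copy Gm28661 at every aligned base. Their first 100 bases are shown because a read from here cannot be placed by its sequence.
mt-Co2: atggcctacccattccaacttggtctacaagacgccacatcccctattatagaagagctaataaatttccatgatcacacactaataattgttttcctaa
Gm28661: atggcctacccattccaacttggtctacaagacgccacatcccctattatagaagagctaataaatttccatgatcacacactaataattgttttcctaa
mt-Nd3 (MT:9459-9806, plus strand), a complex I subunit, differs from its copy Gm28438 by T3C alone, with positions counted from 1 at the 5′ end of the mitochondrial gene, whose base is given first. The capital marks that base in the first 100 bases of both.
mt-Nd3: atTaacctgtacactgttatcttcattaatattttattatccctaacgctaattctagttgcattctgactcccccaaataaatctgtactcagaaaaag
Gm28438: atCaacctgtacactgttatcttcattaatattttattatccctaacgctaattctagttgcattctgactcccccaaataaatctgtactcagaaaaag
mt-Co1 (MT:5328-6872, plus strand), the catalytic subunit of complex IV, has a chromosome 1 copy of its last part only, Gm29216, which starts at base 1054 of the gene. The substitutions T1056A, C1057T, A1059G, A1060G, C1062A and A1066T stand at the start of that copy and are in capitals.
mt-Co1: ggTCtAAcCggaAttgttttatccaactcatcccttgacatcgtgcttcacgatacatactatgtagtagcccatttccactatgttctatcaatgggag
Gm29216: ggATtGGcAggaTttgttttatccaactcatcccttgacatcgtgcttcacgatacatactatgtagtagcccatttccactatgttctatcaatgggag

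Of all stretches of 100 bases in mt-Co2, 99.5% also occurred in a nuclear transcript, and the share was 99.9% in mt-Co3, 99.5% in mt-Atp6, 98.5% in mt-Nd4l and 97.6% in mt-Nd3. It was 60.8% in mt-Nd4, 30.8% in mt-Co1 and 3.2% in mt-Nd2, and 0 in mt-Nd1, mt-Nd5, mt-Nd6, mt-Cytb, mt-Atp8 and both rRNAs. Transcripts on chromosome 2 shared such stretches too, with 80 between Gm13340 and mt-Co1, 88 between Gm13341 and mt-Co2 and 30 between Gm13339 and mt-Nd2. For stretches of 50 bases the share in mt-Co1 was 51.1%. The counts of the chromosome 2 transcripts are not given here and were not added to any member. The copies themselves held counts: Gm28661 had 3174 counts over all libraries, which is 33.0% of the sum with mt-Co2. Gm10925, the copy of mt-Atp6, had 45.7% of the sum with it, Gm28437 had 34.3% with mt-Co3, Gm10222 had 35.7% with mt-Nd4l and Gm28438 had 9.93% with mt-Nd3. Against this, Gm29216 had 0.134% of the sum with mt-Co1 and Gm28439 had 0.834% of that with mt-Nd4. How reads with several placements were counted, and whether strand was used, is not given in the sources used here. The 5 mRNAs that are copied over nearly all of their length, and mt-Nd4, of which the first 876 of 1378 bases are copied, are therefore reported as uncertain, and the same holds where members overlap each other (mt-Atp8 with mt-Atp6, mt-Nd4l with mt-Nd4, and mt-Nd5 with mt-Nd6 on the opposite strand).

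Per kilobase of gene, mt-Co1 was the most abundant member in all 4 cell types. As means of 6 libraries it reached 3763 CPM per kb in Treg, 1550 in CD8, 1199 in Th1 and 758 in Th17. mt-Nd1, a core complex I subunit at MT:2751-3707, and mt-Cytb, the heme-binding subunit of complex III at MT:14145-15288, followed with 728 and 650 CPM per kb on average over the cell types. mt-Nd2 had 375, mt-Nd5 had 239, mt-Rnr2 (the large-subunit rRNA) 228, mt-Rnr1 (the small-subunit rRNA) 224, mt-Nd4 198 and mt-Nd6 158 CPM per kb. From mt-Nd5 to mt-Nd4 the order differed between cell types, with mt-Rnr2 ahead in Th1 and mt-Nd5 ahead in Treg. The 5 mRNAs copied over nearly all of their length stood far lower, with 20.5 for mt-Nd3, 20.4 for mt-Co2, 18.7 for mt-Co3, 17.8 for mt-Atp6 and 3.10 CPM per kb for mt-Nd4l. mt-Atp8, an ATP synthase subunit with no shared 100-base stretch that overlaps mt-Atp6, had 15 counts in all 24 libraries together. The part that the copies and overlaps have in these low levels was not tested.

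**Figure D1:**
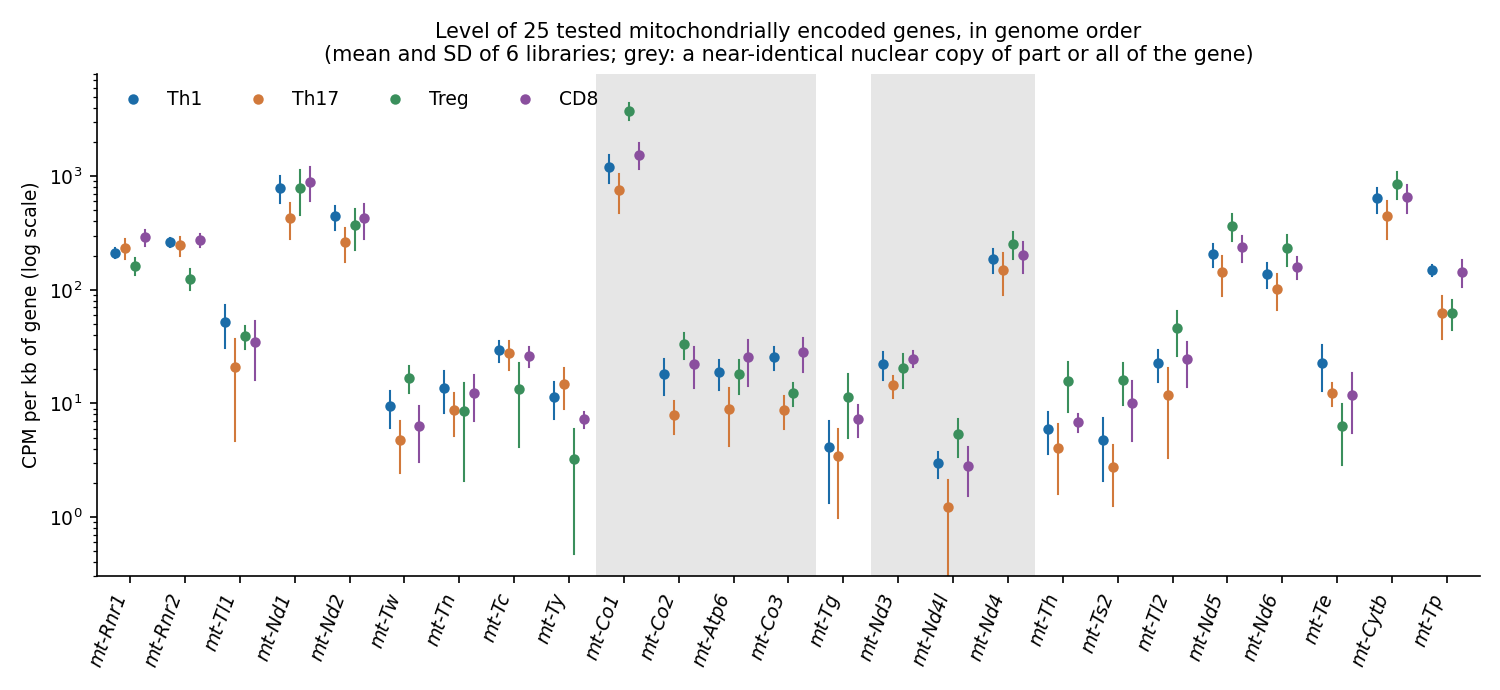
Level of the 25 tested members in genome order, in CPM per kb of gene on a log axis, with points for the mean and lines for the SD of the 6 libraries of each cell type (lines are cut at the lower edge). Grey bands mark genes with a near-identical chromosome 1 copy of part or all of the gene. The highest point is mt-Co1 in Treg at 3763, and mt-Nd4l is lowest among the mRNAs.

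Library preparation enriched poly(A) RNA, and the 22 tRNAs were thinly covered. Together they made 0.183% of the mitochondrially encoded counts in Treg and 0.343 to 0.449% in the other cell types on average. mt-Tp, the proline tRNA beside the control region, led with 3140 counts in all, followed by mt-Tl1 with 1254, mt-Tl2 with 857 and mt-Tc with 708. mt-Tf, mt-Ts1 and mt-Td had 0 counts in every library. After the filter on low counts 25 members were tested. They were 12 mRNAs (all but mt-Atp8), both rRNAs and 11 tRNAs, and the other 12 members had too few counts.

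Mitochondrially encoded genes took the largest share of counts in Treg and the smallest in Th17. The share was 1.13 ± 0.221% (SD, n = 6) in Treg, with a lowest library of 0.934%, a median of 1.03% and a highest of 1.50%. CD8 had 0.572 ± 0.148%, from 0.354 through a median of 0.538 to 0.759%, and Th1 had 0.484 ± 0.112%, from 0.346 through 0.455 to 0.664%. Th17 had 0.336 ± 0.120%, from 0.215 through 0.323 to 0.553%. Every Treg library lay above every library of the other cell types, while Th1, Th17 and CD8 overlapped. The share without the counts of cytosolic ribosomal protein genes in the denominator was 1.16% in Treg, 0.641% in CD8, 0.552% in Th1 and 0.380% in Th17.

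The make-up of these counts differed between cell types as well, and this measure does not depend on nuclear reads. mt-Co1 held 61.7 ± 3.57% of the mitochondrially encoded counts in Treg, from 58.0 to 67.7%, against 39.7 ± 1.05% in CD8, 35.4 ± 2.05% in Th1 and 32.7 ± 1.95% in Th17. The Treg libraries overlapped with none of the others, whose highest value was 41.1% in the CD8 library with WMS-75. mt-Nd1 went the other way, with 7.70 ± 1.61% in Treg against 14.6 ± 1.83% in Th1, and so did mt-Nd2, with 3.93 ± 0.718% against 8.83 ± 0.725%. mt-Nd5, which encodes a proton-pumping subunit of complex I, had nearly the same share everywhere, between 7.00% in Treg and 7.35% in Th17. All shares have 1 denominator, so that a larger share of mt-Co1 lowers those of the other members. In CPM, mt-Nd1 was at 757 in Treg and 760 in Th1 on average. mt-Nd2 was at 385 and 459 CPM and mt-Nd5 at 668 and 376 CPM in the same order. The rRNAs together held 3.76 ± 0.432% in Treg, 12.2 ± 2.01% in CD8, 12.3 ± 2.40% in Th1 and 18.2 ± 4.45% in Th17. In Th17 this rRNA share ran from 12.4% with WMS-75 to 22.4%, and in each of the 4 cell types the library with the most mitochondrial mRNA had the smallest rRNA share. That follows in part from the measure, since the mRNA counts are in its denominator.

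**Figure D2:**
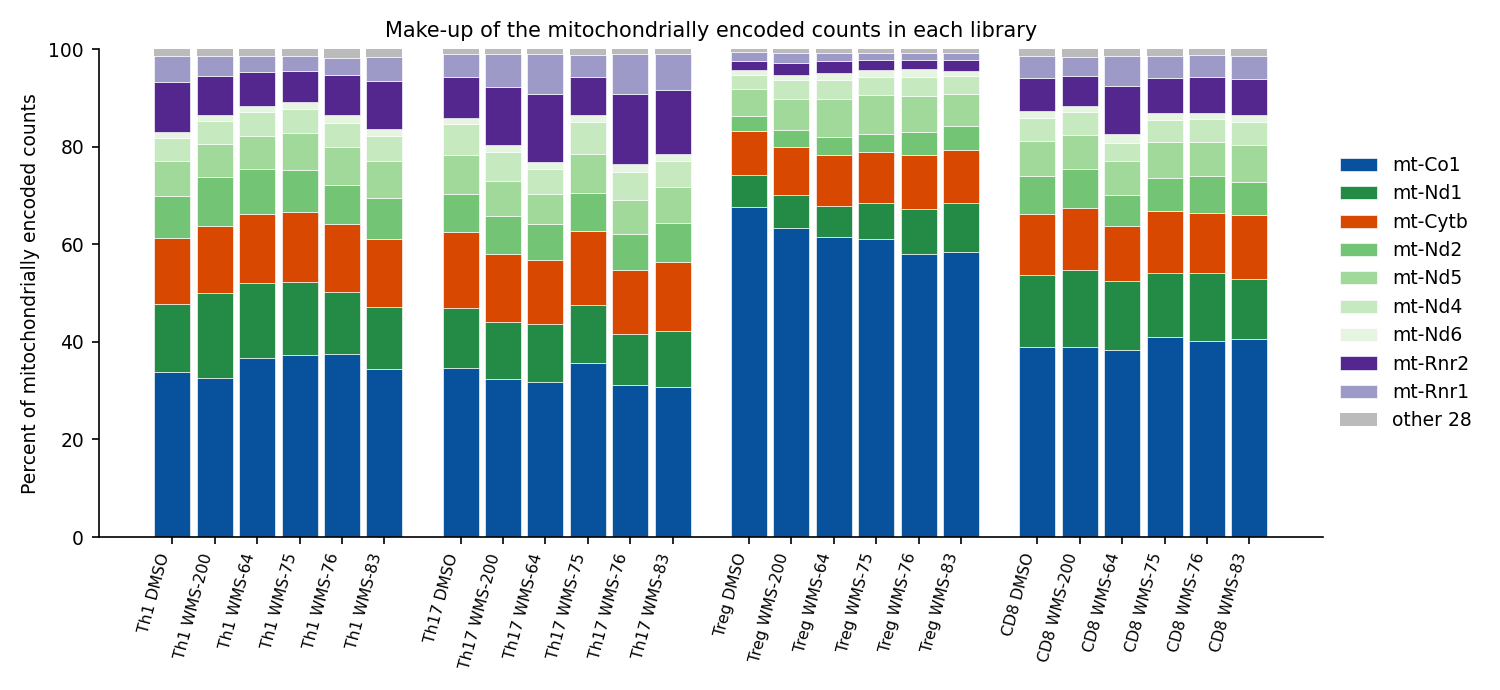
Percent of the mitochondrially encoded counts held by each of 9 members and by the other 28 together, one stacked bar for each of the 24 libraries. mt-Co1 holds 58.0 to 67.7% in the Treg libraries and at most 41.1% elsewhere, and the rRNA segments are thinnest in Treg.

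Among the 12 tested mRNAs, mt-Co1 had the largest absolute log2 fold change between Treg and each other cell type, and the 3 complex IV members did not all differ in one direction. mt-Co1 was at 4821, 5378 and 7338 CPM in the lowest, middle and highest Treg library. It was at 1270, 1748 and 2665 CPM in Th1, at 731, 1134 and 1978 CPM in Th17 and at 1452, 2293 and 3109 CPM in CD8. All Treg libraries lay above all others. The log2 fold change was 1.67 ± 0.22 (SE) for Treg minus Th1 (3.19-fold, edgeR adjusted p = 1.32e-06) and 2.36 ± 0.23 for Treg minus Th17 (5.14-fold, adjusted p = 1.75e-08), and for CD8 minus Treg it was -1.29 ± 0.22 (adjusted p = 2.77e-05). mt-Co2 was also higher in Treg, at 16.6, 20.8 and 31.2 CPM against 7.23, 13.1 and 18.4 CPM in Th1 (log2 fold change 0.88 ± 0.27, adjusted p = 0.00720), with overlap. mt-Co3 was lower, at 5.66, 10.3 and 11.6 CPM in Treg against 14.4, 20.5 and 25.4 CPM in Th1 with no overlap (-1.04 ± 0.23, adjusted p = 3.24e-04). The copies moved alike: Gm28661 had a log2 fold change of 0.83 ± 0.30 and Gm28437 one of -1.19 ± 0.32 for Treg minus Th1. With the counts of each copy added to its member, the calls for mt-Co2 and mt-Co3 held. Both copies match their member at every aligned base, so that reads cannot be divided between them by sequence. Neither observation is therefore separate from the counts of the members.

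**Figure D3:**
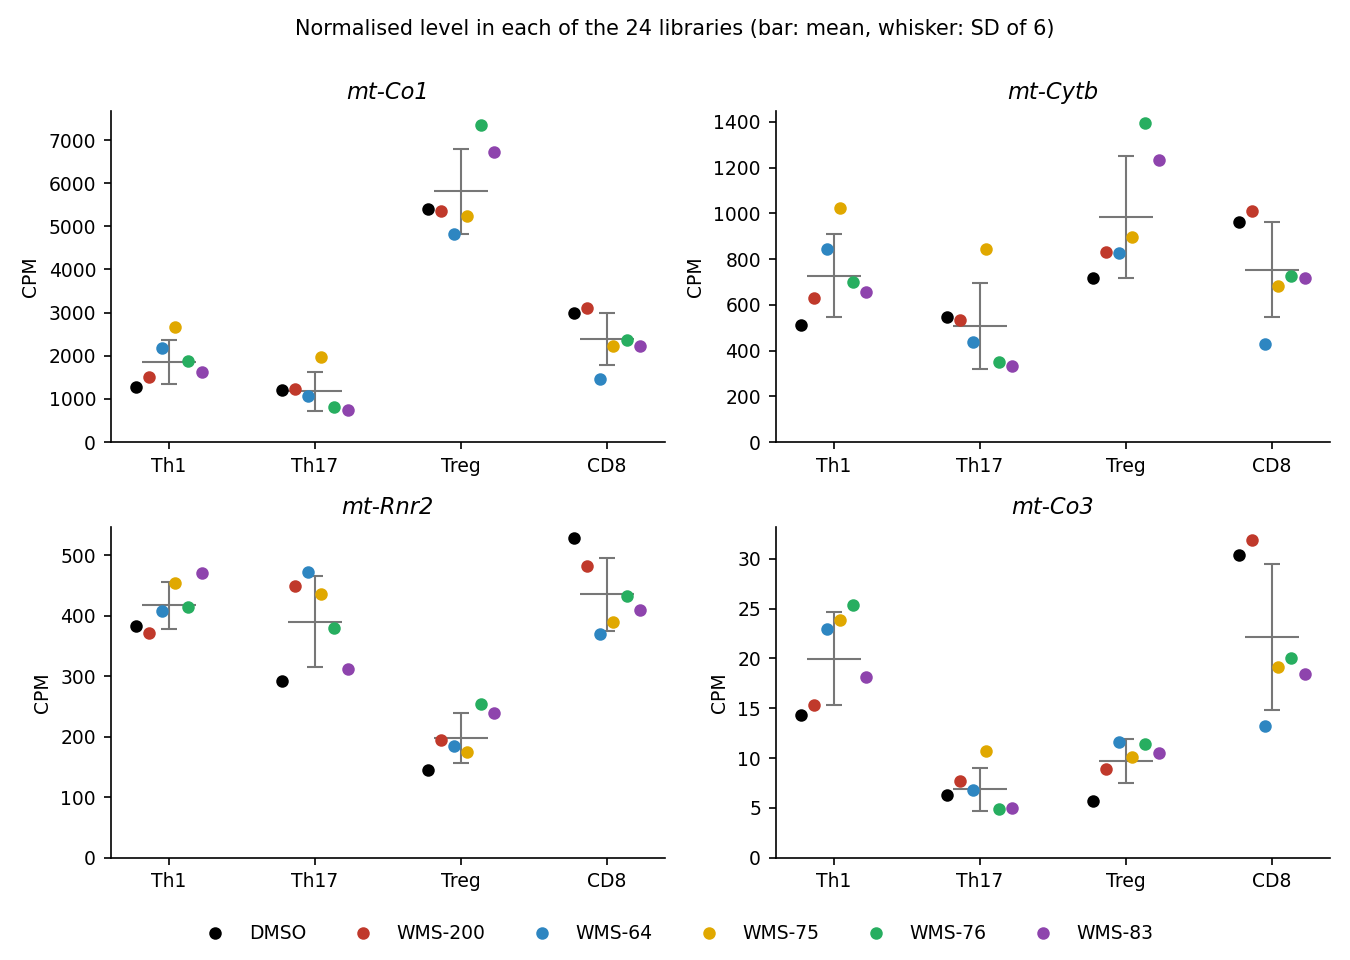
CPM of mt-Co1, mt-Cytb, mt-Rnr2 and mt-Co3 in each library, coloured by treatment, with grey bars for the mean and whiskers for the SD of the 6 libraries of a cell type; each axis starts at 0. Treg libraries lie above all others for mt-Co1 and below all others for mt-Rnr2, while mt-Cytb overlaps between cell types.

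Of the 25 tested members, 9 were higher and 7 lower in Treg than in Th1. Of all genes tested, 77.5% were called in this comparison, 40.1% higher and 37.3% lower, so that the number of members called is close to the background and only their directions and sizes are described. The libraries of the 2 cell types did not overlap in 6 of the 25, against 58.4% of all genes tested. Among the mRNAs 5 of 12 were higher and 1 lower, with a median log2 fold change of 0.46 beside 0.09 over all genes tested. Scaling to the total count in place of TMM changes all genes of a library by 1 factor, members included. It moved the median over all genes to 0.45. The median of the mRNAs under this scaling is not given, so that 0.45 is not the background of the 0.46 above. Every call named in this paragraph and the one before held with it. Members with an unadjusted edgeR p under 0.05 numbered 18 with it and 16 with TMM. The complex I members mt-Nd5 (0.84 ± 0.23, adjusted p = 0.00362) and mt-Nd6 (0.76 ± 0.22, adjusted p = 0.00463) were higher in Treg. mt-Nd5 was at 444, 646 and 958 CPM in Treg and at 270, 373 and 529 CPM in Th1. mt-Nd6, the only mRNA on the other strand, was at 79.2, 117 and 187 CPM in Treg and 49.7, 73.1 and 102 CPM in Th1, and both overlapped. mt-Nd4l was called higher (0.86 ± 0.37), but the call was lost without any 1 of 8 libraries (Th1 with DMSO, WMS-200, WMS-64, WMS-75 or WMS-76, Treg with WMS-64, WMS-76 or WMS-83), with the copy's counts added, and without the filter on low counts. mt-Cytb had a log2 fold change of 0.45 ± 0.25 (adjusted p = 0.106), mt-Nd4 of 0.46 ± 0.26 (adjusted p = 0.119), mt-Nd1 of 0.01 ± 0.31 and mt-Nd2 of -0.25 ± 0.29, none of which passed. mt-Atp6, the proton-channel subunit of ATP synthase, and mt-Nd3 did not pass either.

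Both rRNAs had lower counts in Treg. Library preparation enriched poly(A) RNA, and how far these counts and the rRNA shares above follow the amount of rRNA in the cells was not tested. mt-Rnr2 was at 144, 189 and 253 CPM in Treg against 372, 411 and 471 CPM in Th1, with no overlap (-1.08 ± 0.13, adjusted p = 2.35e-07). mt-Rnr1 was at 122, 157 and 187 CPM against 174, 199 and 227 CPM, with overlap (-0.38 ± 0.13, adjusted p = 0.0114). The mt-Rnr1 call was lost with total-count scaling and with an offset for gene length. Against Th17 the values were -0.98 ± 0.13 for mt-Rnr2 and -0.52 ± 0.13 for mt-Rnr1, both called, and against CD8 both were lower in Treg with no overlap. The mt-Rnr1 call against Th17 was lost with total-count scaling and with the WT number of the libraries as a block.

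The tRNAs called in Treg minus Th1 differed in direction by the strand on which the gene lies. Whether reads were counted by strand is not given, so that the strand from which the reads came cannot be assigned. In that comparison, with 40.1% of all genes tested higher and 37.3% lower, 4 of 6 tested tRNAs on the plus strand were higher and none lower, with a median log2 fold change of 1.18. Of 5 tested on the minus strand 4 were lower and none higher, with a median of -1.24. In Treg minus Th17 the counts were 6 of 6 higher on the plus strand and 2 of 5 lower with none higher on the minus strand, beside 38.3% of all genes tested higher and 36.5% lower, so that the minus-strand count is near the background there. The filter on low counts bears on these numbers. mt-Th had 11 to 33 counts in Treg libraries and 4 to 11 in Th1. For mt-Ts2 the counts were 4 to 25 and 2 to 9, and for mt-Tg 7 to 30 and 1 to 9. These tRNAs passed the filter mainly through Treg, so that their being higher there was in part set by the filter. Coverage of minus-strand tRNAs was thin as well, with 1 to 12 counts of mt-Ty and 4 to 18 of mt-Te in Treg. These sequences are the 8 tRNAs called in Treg minus Th1, first those higher and then those lower in Treg and are shown for their shortness and their anticodons, which are in capitals.
mt-Tg: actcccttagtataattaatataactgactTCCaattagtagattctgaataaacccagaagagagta
mt-Th: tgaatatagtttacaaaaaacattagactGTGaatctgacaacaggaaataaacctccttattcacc
mt-Ts2: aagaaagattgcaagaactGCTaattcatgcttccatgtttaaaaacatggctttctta
mt-Tl2: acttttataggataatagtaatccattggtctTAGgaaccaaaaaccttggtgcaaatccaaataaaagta
mt-Tc: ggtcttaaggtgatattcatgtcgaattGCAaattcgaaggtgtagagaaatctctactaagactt
mt-Ty: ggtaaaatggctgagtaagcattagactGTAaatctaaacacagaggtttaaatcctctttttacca
mt-Te: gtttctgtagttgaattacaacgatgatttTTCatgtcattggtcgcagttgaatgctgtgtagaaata
mt-Tp: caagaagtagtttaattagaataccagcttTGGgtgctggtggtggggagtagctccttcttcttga
The plus-strand tRNAs mt-Th, mt-Ts2 and mt-Tl2 (serine and leucine tRNAs after the histidine one) lie in a row at MT:11546-11741 between mt-Nd4 and mt-Nd5, and mt-Tg, the glycine tRNA, lies between mt-Co3 and mt-Nd3. mt-Tc and mt-Ty, for cysteine and tyrosine, lie on the minus strand just before mt-Co1, mt-Te, for glutamate, beside mt-Nd6, and mt-Tp at MT:15356-15422. mt-Ts2 rose most among the plus-strand members, at 0.181, 1.09 and 1.23 CPM in Treg and 0.0990, 0.282 and 0.475 CPM in Th1 (1.83 ± 0.51, adjusted p = 0.00204). mt-Tp was at 2.49, 4.04 and 6.03 CPM in Treg and 8.37, 10.1 and 11.6 CPM in Th1, with no overlap (-1.24 ± 0.22, adjusted p = 2.27e-05). mt-Te fell by 1.77 ± 0.43 on the log2 scale with no overlap, mt-Ty by 1.86 ± 0.47 and mt-Tc by 1.16 ± 0.32, and mt-Th rose by 1.34 ± 0.43. The mt-Tl2 call (1.02 ± 0.43) was lost without any 1 of 7 libraries (Th1 with DMSO, WMS-64, WMS-75 or WMS-83, Treg with WMS-75, WMS-76 or WMS-83), with limma-voom and with the length offset, and the mt-Tg call (1.48 ± 0.53) without Treg WMS-83. A read from a precursor or from a neighbouring gene that reaches into a tRNA cannot be told apart from the mature tRNA in these counts. mt-Tl1, mt-Tw and mt-Tn did not pass in Treg minus Th1.

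**Figure D4:**
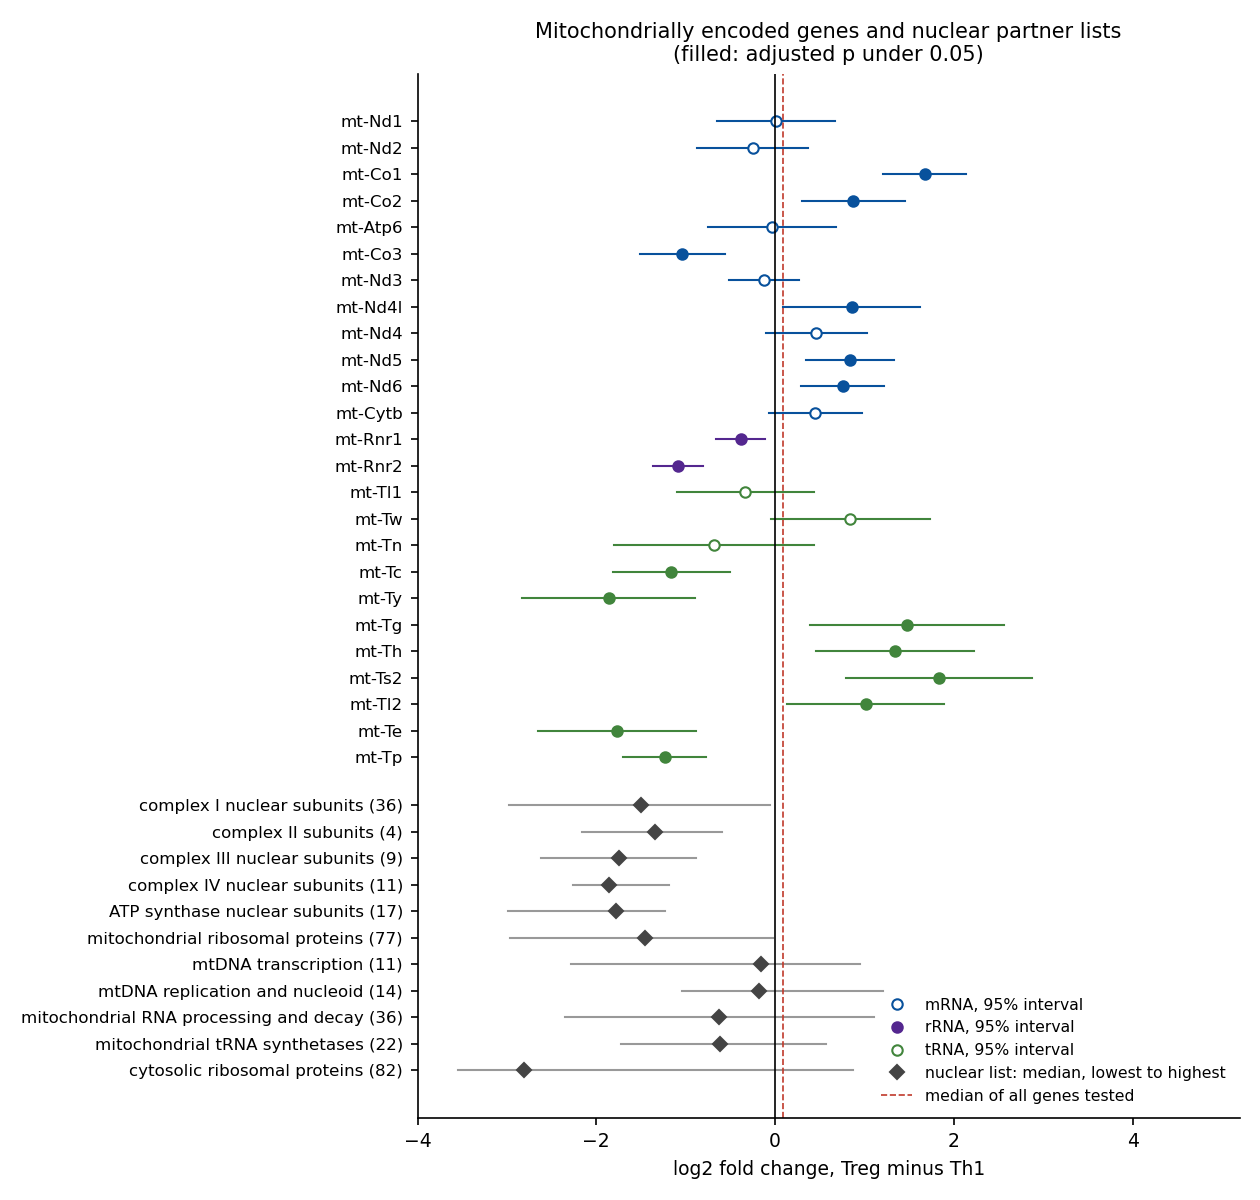
Log2 fold change for Treg minus Th1 of each tested member with its 95% interval (filled where adjusted p is under 0.05), above the median and the lowest to highest value of nuclear gene lists, with the number of genes tested in brackets. mt-Co1 lies at 1.67 and the rRNAs below 0, the called plus-strand tRNAs lie above 0 and the called minus-strand tRNAs below it, and the medians of the nuclear complex subunits lie between -1.86 and -1.35.

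The nuclear partners of the mitochondrial proteins were almost all lower in Treg than in Th1. Of the nuclear complex I subunits 35 of 36 were lower and none higher (median log2 fold change -1.50), as were 4 of 4 complex II subunits (-1.35), 9 of 9 of complex III (-1.75), 11 of 11 of complex IV (-1.86) and 17 of 17 of ATP synthase (-1.78), where Atp5o has 2 identifiers. Over all genes tested 37.3% were lower and the median was 0.09. Cox4i1, the regulatory subunit that sits beside mt-Co1 in complex IV, was at 48.2, 73.8 and 89.2 CPM in Treg and 306, 326 and 347 CPM in Th1 (-2.19 ± 0.11). Ndufa1, a small complex I subunit, was at 3.97 to 7.32 CPM against 30.4 to 42.2 CPM (-2.58 ± 0.14), and Atp5g1, a c-ring subunit of ATP synthase, fell by 2.99 ± 0.10 on the log2 scale. Sdha, the large flavoprotein of complex II, fell least in its complex, by 0.59 ± 0.05. In these genes the Treg and Th1 libraries did not overlap. Mitochondrial ribosomal proteins were lower in 76 of 77 (median -1.45) and cytosolic ribosomal proteins in 80 of 82 (median -2.80), so that the fall was not particular to mitochondrial proteins. The share of counts on cytosolic ribosomal protein genes, given above, moved with these falls, and its part in them was not tested. With an offset for gene length fitted per library, mt-Co1, mt-Nd5, mt-Nd6, mt-Co2, mt-Co3 and mt-Rnr2 kept their calls in Treg minus Th1.

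The nuclear genes that transcribe and copy the mitochondrial genome did not all differ in one direction. Of 11 transcription genes 4 were higher and 6 lower in Treg than in Th1 (median -0.15), and of 14 replication and nucleoid genes 4 were higher and 7 lower (-0.18). Over all genes tested 40.1% were higher and 37.3% lower, with a median of 0.09. The counts of these lists, and of the regulators of biogenesis below, are not far from those shares and are not read as a result. Polrmt, the mitochondrial RNA polymerase, was higher, at 45.4, 56.4 and 65.6 CPM in Treg and 42.3, 46.6 and 49.2 CPM in Th1 with overlap (0.27 ± 0.09, adjusted p = 0.00785). Tfam, which packages the genome and starts its transcription, was lower, at 26.3, 36.3 and 38.8 CPM against 52.0, 60.3 and 66.4 CPM (-0.80 ± 0.08). Polg and Polg2, the catalytic and accessory subunits of the mitochondrial DNA polymerase, were higher (0.88 ± 0.08 and 1.21 ± 0.10), and Twnk, the replicative helicase, was lower (-1.04 ± 0.09), all without overlap. Of 36 RNA processing and decay genes 6 were higher and 24 lower (median -0.63). They included Hsd17b10, a subunit of the enzyme that cuts the 5′ ends of mitochondrial tRNAs (-2.35 ± 0.08), and Lrpprc, which stabilizes mitochondrial mRNAs (-0.57 ± 0.06). Mitochondrial tRNA synthetases were higher in 6 and lower in 14 of 22 (-0.61), translation factors in 2 and 10 of 14 (-0.44), regulators of biogenesis in 4 and 6 of 11 (-0.15), and outer membrane and matrix mass markers in 1 and 14 of 15 (-1.59). Among the regulators Ppargc1b, a coactivator of mitochondrial genes, was higher (1.15 ± 0.16) and Myc lower (-1.39 ± 0.11).

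Th17 had the lowest mean level of all 12 tested mRNAs among the 4 cell types. Against Th1, 8 of 12 mRNAs, 2 of 11 tRNAs and neither rRNA were called, all lower in Th17, which makes 10 of 25 tested members against 47.3% of all genes tested called, 23.2% higher and 24.1% lower. The libraries did not overlap in 2 of the 25, against 31.7% of all genes. The median over the mRNAs was -0.73 beside -0.02 over all genes. mt-Co3 moved most, at 4.84, 6.53 and 10.7 CPM in Th17 against the Th1 values above, with no overlap (-1.55 ± 0.24, adjusted p = 1.28e-05). mt-Co2 (-1.18 ± 0.29), mt-Atp6 (-1.11 ± 0.36), mt-Nd3 (-0.60 ± 0.20) and mt-Nd4l (-1.33 ± 0.42) were lower as well, so that all 5 mRNAs copied over nearly all of their length were called, and so were mt-Tl1 (-1.39 ± 0.39) and mt-Tp (-1.26 ± 0.23). Of the 7 other mRNAs, among them mt-Nd4 with its partial copy, 3 were called: mt-Co1 (-0.69 ± 0.22, lost without Th1 WMS-64), mt-Nd1 (-0.89 ± 0.31, lost without Th1 WMS-64, Th1 WMS-75, Th17 WMS-76 or Th17 WMS-83) and mt-Nd2 (-0.77 ± 0.29, lost with the length offset and without any 1 of Th1 WMS-200, WMS-64 or WMS-75 and Th17 DMSO, WMS-200, WMS-64, WMS-76 or WMS-83). mt-Cytb had -0.54 ± 0.25 (adjusted p = 0.0831). The nuclear subunits moved less here, with 10 of 36 lower and 2 higher in complex I (median -0.09), 0 of 4 called in complex II (-0.05), 3 of 9 lower in complex III (-0.17), 4 of 11 in complex IV (-0.19) and 8 of 17 in ATP synthase (-0.22). Among them Ndufv2, of the NADH-binding arm of complex I, was at -0.56 ± 0.08.

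Treg minus Th17 and CD8 minus Th17 share the Th17 libraries with that comparison and are given by their own values. In Treg minus Th17, 16 of 25 tested members were higher and 4 lower, with 74.9% of all genes tested called, 38.3% higher and 36.5% lower, and 6 of the 25 did not overlap, against 54.1% of all genes. Of the mRNAs 10 of 12 were higher (median 1.03 beside 0.09 over all genes), among them mt-Co2 (2.05 ± 0.29), mt-Nd4l (2.19 ± 0.41), mt-Nd5 (1.38 ± 0.24), mt-Nd6 (1.21 ± 0.22) and mt-Cytb (0.99 ± 0.25), and mt-Nd2 and mt-Co3 did not pass. With the WT number of the libraries as a block, the calls for mt-Nd1, mt-Nd4, mt-Atp6, mt-Rnr1 and mt-Tc were lost. The calls for mt-Nd1, mt-Nd3 and mt-Tl1 were each lost without single libraries, Th17 WMS-76, Treg WMS-76 and Treg WMS-83 in each case and Th17 DMSO, WMS-64 or WMS-83 in some. The mt-Nd1 call was also lost in the fit to the 2 cell types alone, the mt-Nd3 call with the copy's counts added and the mt-Tl1 call with limma-voom and with the length offset. In CD8 minus Th17, 11 of 25 were higher and none lower, with 47.1% of all genes tested called, 24.3% higher and 22.8% lower, and 2 of the 25 did not overlap, against 32.4% of all genes. They were 9 of 12 mRNAs (median 0.94 beside 0.00 over all genes), mt-Tp (1.21 ± 0.23) and mt-Ts2 (1.81 ± 0.55). mt-Co3 (1.71 ± 0.24) and mt-Co2 (1.50 ± 0.29) did not overlap, and mt-Co1 had 1.07 ± 0.22 (adjusted p = 4.89e-04). mt-Nd6 (0.70 ± 0.22) lost its call without CD8 DMSO and mt-Nd4l (1.24 ± 0.42) without CD8 WMS-200. With the WT number as a block, 6 of the 11 calls were lost, those of mt-Nd1, mt-Nd5, mt-Nd6, mt-Atp6, mt-Nd4l and mt-Ts2. Only the Th17 libraries with WMS-200, WMS-64, WMS-75 and WMS-76 carry WT number 1. The blocked Th17 level in both comparisons therefore rests on the Th17 libraries with DMSO and WMS-83.

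CD8 and Th1 differed least. Only mt-Rnr1 was called of the 25 tested members, against 16.0% of all genes tested, 8.69% higher and 7.26% lower. It was at 235, 261 and 339 CPM in CD8, with no overlap with Th1 (0.45 ± 0.13, adjusted p = 0.0207), and 13.7% of all genes tested did not overlap. The call was lost without Th1 WMS-200, without Th1 WMS-76 or without CD8 DMSO. None of the 77 nuclear subunits of the complexes tested were called in this comparison. In CD8 minus Treg 6 members were higher and 6 lower, with 78.0% of all genes tested called, 37.8% higher and 40.2% lower, and 5 of the 25 did not overlap, against 59.2% of all genes. mt-Rnr2 (1.15 ± 0.14), mt-Rnr1 (0.83 ± 0.13), mt-Co3 (1.20 ± 0.23), mt-Tp (1.19 ± 0.23), mt-Tc (1.00 ± 0.32) and mt-Ty (1.23 ± 0.48) were higher in CD8. mt-Co1, mt-Tw (-1.45 ± 0.45), mt-Th (-1.15 ± 0.42), mt-Nd4l (-0.95 ± 0.38), mt-Nd5 (-0.62 ± 0.24) and mt-Nd6 (-0.50 ± 0.22) were lower. The mt-Nd6 call was lost in 16 of 24 fits that left out 1 library, some of them Th1 or Th17 libraries. The calls for mt-Nd5 (without Treg WMS-64, WMS-76 or WMS-83 or CD8 WMS-64, WMS-75 or WMS-76), mt-Nd4l (without Treg WMS-76 or CD8 WMS-75, WMS-76 or WMS-83), mt-Th (without Treg WMS-75 or WMS-83) and mt-Ty (without Treg DMSO, Treg WMS-200 or CD8 DMSO) also rested on single libraries. Those for mt-Tc and mt-Ty were lost with total-count scaling, that for mt-Ty also with the WT number as a block, those for mt-Nd4l and mt-Th without the filter on low counts and that for mt-Nd6 in the fit to these 2 cell types alone.

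Within a cell type the more abundant mitochondrial mRNAs varied more from library to library than the median gene above the same level. Of the mRNAs 7 had a mean log2 CPM of at least 5, and their median SD of log2 CPM was 0.50 in Th17, 0.44 in CD8, 0.39 in Treg and 0.35 in Th1. Over all 6105 genes at or above that level it was 0.12, 0.08, 0.17 and 0.08 in the same order. The 5 other tested mRNAs lie below that level and are left out here. mt-Cytb, for example, ran from 512 CPM with DMSO to 1025 CPM with WMS-75 in Th1 and from 332 CPM with WMS-83 to 845 CPM with WMS-75 in Th17. It ran from 717 CPM with DMSO to 1393 CPM with WMS-76 in Treg and from 430 CPM with WMS-64 to 1008 CPM with WMS-200 in CD8. As a share of the mitochondrially encoded counts the same 7 mRNAs varied less, with a median SD on the log2 scale of 0.20 in Treg, 0.12 in CD8, 0.10 in Th17 and 0.08 in Th1. The smaller spread follows in part from the measure, since these mRNAs make up most of its denominator.

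The mRNAs of a library were high or low together. In Th17, all 12 tested mRNAs were highest in the WMS-75 library and 8 were lowest in the WMS-83 library. In Th1, 11 of 12 were highest with WMS-75 and 10 were lowest with DMSO. In CD8, 10 of 12 were highest with WMS-200 and 11 lowest with WMS-64, and in Treg 10 were highest with WMS-76 and 7 lowest with DMSO. The rRNAs had other highest libraries in Th1 (both with WMS-83), Th17 (both with WMS-64) and CD8 (both with DMSO), and in Treg 1 was highest with WMS-76 and 1 with WMS-200. In CD8 both rRNAs were lowest with WMS-64, as 11 of the mRNAs were. No treatment was at the same extreme in all 4 cell types, and WMS-75 was the highest library for none of the mRNAs in Treg or CD8. Since each treatment had 1 library per cell type, treatment and library cannot be told apart within a cell type.

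The agonists were compared with DMSO first together, over all cell types. None of the 25 tested members was called by edgeR, 0.0% of all genes tested were called, and none of the 25 had an unadjusted p under 0.05, against 3.17% of all genes. DESeq2 called 0 genes in all and limma-voom 5, none of them members. mt-Co1 had a log2 fold change of 0.03 ± 0.21 with a 95% interval from -0.40 to 0.47, mt-Cytb 0.09 ± 0.24 (-0.41 to 0.58) and mt-Rnr2 0.18 ± 0.13 (-0.09 to 0.44). The median over the 12 mRNAs was 0.11 beside 0.01 over all genes tested. Values that miss the threshold do not show that agonists and DMSO act alike.

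Within cell types no tested member was called either. The share of all genes tested that were called was 8.82% in Treg, 0.0378% in Th17, 0.0063% in CD8 and 0.0% in Th1. Again no member was called with the WT number as a block. In Treg only the DMSO and WMS-200 libraries carry number 3, so that the blocked Treg values compare the WMS-200 library with the DMSO library alone. Estimates for the mRNAs pointed up in 11 of 12 in Th1 (median 0.60) and in 11 of 12 in Treg (0.65), down in 12 of 12 in CD8 (-0.50) and down in 8 of 12 in Th17 (-0.05), each against 1 DMSO library. With the WT number as a block they pointed up in 9 of 12 in Treg (median 0.28) and down in 9 of 12 in Th17 (-0.24). All Th1 libraries share 1 WT number, as do all CD8 libraries, so that the block cannot change the estimates there. In Th1 the DMSO library had 0.346% of counts on members and the agonist libraries 0.512 ± 0.0989% (SD, n = 5), and in CD8 the values were 0.720% and 0.542 ± 0.144%. mt-Rnr2 came nearest to the threshold in Treg, at 144 CPM with DMSO and 174 to 253 CPM with the agonists (0.54 ± 0.20, adjusted p = 0.0901, unadjusted p = 0.0117), and the block gave 0.43 ± 0.21 (adjusted p = 0.484). In Th17 it was at 292 CPM with DMSO and 312 to 472 CPM with the agonists (0.49 ± 0.19, adjusted p = 1.00, unadjusted p = 0.0190), and in CD8 it was highest with DMSO. The Th17 DMSO library carries WT number 2 and the Th17 agonist libraries 1 or 3, so that agonist and WT number cannot be told apart within Th17. The blocked value there, 0.23 ± 0.27 (adjusted p = 0.767), rests on the WMS-83 library and on the difference between numbers 2 and 3 in Treg. The summed CD8 markers also differed in Th17, at 440 CPM with DMSO and 177 to 346 CPM with the agonists, and their part was not tested. Members with an unadjusted p under 0.05 numbered 2 in Treg, 2 in Th17, 1 in Th1 and 0 in CD8, where 23.0, 3.34, 3.25 and 2.01% of all genes tested had one. The test of whether the agonist effect differs between cell types called none of the 25, against 0.176% of all genes tested, had 3 with an unadjusted p under 0.05, against 12.9%, and its smallest adjusted p was 0.201, for mt-Rnr2.

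In Treg the agonist libraries also differed from DMSO in nuclear genes. Of 82 cytosolic ribosomal protein genes 46 were higher with agonist, beside 7.64% of all genes tested higher and 1.18% lower, and the share of counts on these genes was 1.68% with DMSO and 2.44 ± 0.329% with the agonists. Mitochondrial ribosomal proteins were higher in 15 of 77 and nuclear complex I subunits in 5 of 36, with none lower. The Treg libraries with DMSO and WMS-200 carry WT number 3 and the other 4 carry number 2. With that number as a block, the Treg comparison therefore rests on the WMS-200 library against the DMSO library alone. Median log2 fold changes were then 0.35 for cytosolic ribosomal proteins, 0.13 for mitochondrial ones and 0.19 for complex I subunits. Over all genes tested the median was 0.03. Nearly all of these calls were lost in that fit, but fewer libraries enter the comparison, so that the loss cannot be assigned to the number. Within Treg 1 agonist library shares the number of the DMSO library, and how far agonist and WT number account for the difference was not tested.

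Each compound against DMSO, with 1 library in each of 4 cell types, gave 0 called members of 25 in all 5 comparisons, and 0.0% of all genes tested in each. No member had an unadjusted p under 0.05, against 6.43% of all genes tested with WMS-64, 3.9% with WMS-83, 3.45% with WMS-75, 3.07% with WMS-76 and 1.55% with WMS-200. In log2 fold change against DMSO, mt-Co1 was at 0.35 ± 0.27 with WMS-75, at 0.07 ± 0.26 with WMS-200, at 0.02 ± 0.27 with WMS-76, at -0.12 ± 0.27 with WMS-83 and at -0.14 ± 0.27 with WMS-64. WMS-75 had the largest median over the mRNAs, at 0.36, and WMS-64 the smallest, at -0.12.

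**Figure D5:**
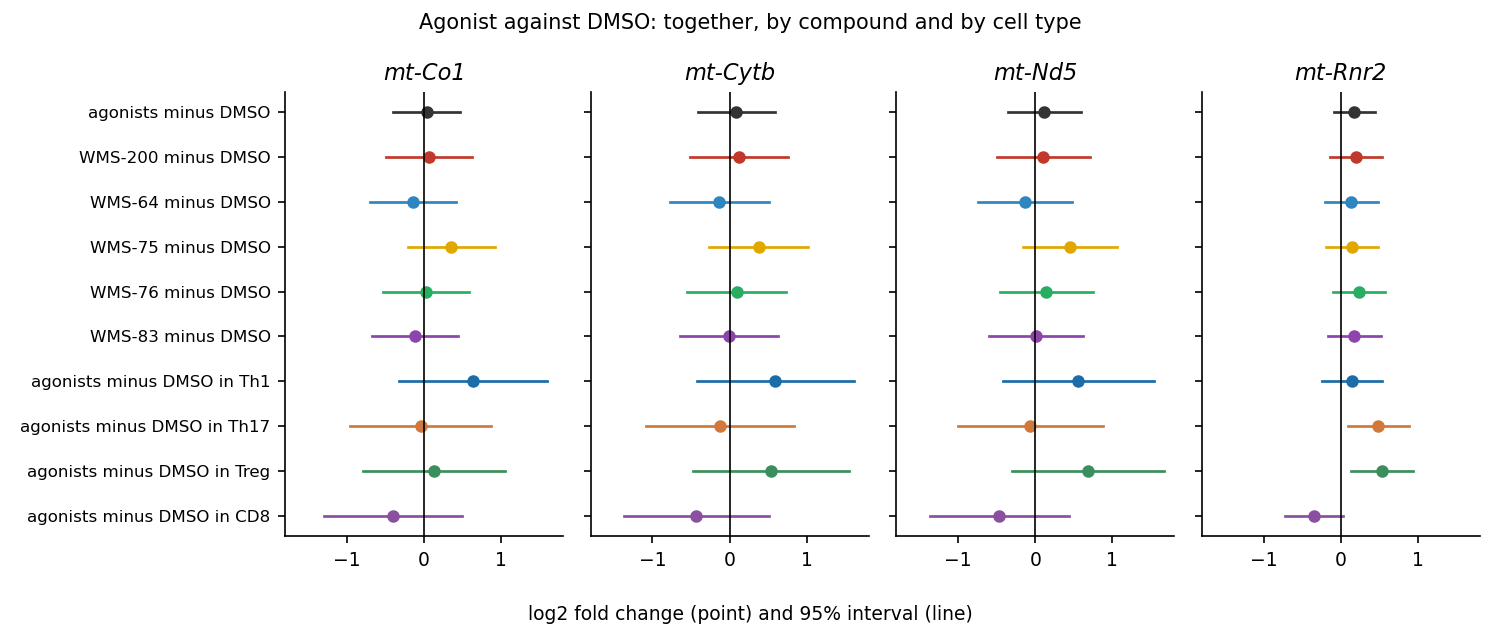
Log2 fold change (point) and 95% interval (line) of mt-Co1, mt-Cytb, mt-Nd5 and mt-Rnr2 for the agonists together, each compound and each cell type, all against DMSO. Every interval of mt-Co1, mt-Cytb and mt-Nd5 includes 0, and those of mt-Rnr2 in Th17 and Treg do not, with adjusted p of 1.00 and 0.0901.

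All compounds had the same dose, and 10 pairs were compared, each adjusted over all genes tested. No tested member was called in any pair, where the share of all genes called was 0.0% or, for WMS-76 minus WMS-200, 0.0063%. For WMS-75 minus WMS-64 mt-Co1 had 0.50 ± 0.27 with a 95% interval from -0.06 to 1.05 (adjusted p = 0.602), and for WMS-83 minus WMS-75 it had -0.47 ± 0.27 with an interval from -1.03 to 0.09 (adjusted p = 0.728). The interval for WMS-76 minus WMS-200 was -0.60 to 0.51 and that for WMS-83 minus WMS-64 was -0.54 to 0.58, and over all 10 pairs the intervals for mt-Co1 ran from -1.03 to 1.05. An unadjusted p under 0.05 was found for 1 member in each of 3 pairs, mt-Nd3 in WMS-75 minus WMS-200 (3.31% of all genes tested), mt-Nd4l in WMS-75 minus WMS-64 (8.7%) and mt-Tl1 in WMS-83 minus WMS-75 (6.84%). In the other 7 pairs no member had one, against 1.65 to 4.24% of all genes. The F-test among the 5 agonists called none, had no member with an unadjusted p under 0.05, against 2.8% of all genes tested, and called 0.0% of all genes. Without the filter on low counts, when 37879 genes were tested, edgeR called members in WMS-75 minus DMSO (5 higher), WMS-75 minus WMS-64 (8 higher), WMS-83 minus WMS-75 (5 lower) and the F-test (7), beside 23, 80, 72 and 149 genes in all. In WMS-75 minus DMSO they were mt-Co1, mt-Cytb, mt-Nd4, mt-Nd5 and mt-Nd6. DESeq2 and limma-voom, run with the filter, called no member in these comparisons, and neither did any fit that left out 1 library.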

How the data were processed

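Poly(A)-enriched RNA of 24 libraries was counted per gene by the authors, and the submitters' processing notes name featureCounts, HISAT2 and fastp. Their versions, the genome build, the annotation, the strand setting and the treatment of reads with several placements were not given in the sources used here. The deposited values are raw counts per gene, whose library totals ran from 15188284 to 21946887. A count of 0 or of few reads is limited by counting error, and the number of libraries limits the precision of every comparison. Columns were assigned to libraries by the column names in the labels, and 0 columns of values were left unassigned.

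The members and gene lists were chosen with earlier results of these data known. CPM was computed from the deposited counts over the TMM-scaled library size (the total of the tested genes times a factor of 1.14 to 1.25 in Treg and 0.907 to 0.996 in the other libraries), and CPM per kb by dividing by the gene length in the file. Genes were kept by filterByExpr with cell type as the group and a minimum count of 10, which left 15885 genes. Tests used edgeR 4.0.16 in R 4.3.3, with TMM scaling and robust quasi-likelihood F-tests, and p-values were adjusted by Benjamini-Hochberg over all genes tested, with a threshold of 0.05. Cell types and compounds were compared in an additive model of both (15 residual degrees of freedom, biological coefficient of variation 0.133). Agonists against DMSO within a cell type were compared in a model of cell type and agonist or DMSO (16 residual degrees of freedom), in which the lone DMSO library is assumed to vary like the other libraries. The SE of a log2 fold change was taken from the F statistic, and intervals cover 95%.

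All members that passed the filter are named. Of each nuclear list the named genes were picked among up to 4 called genes with the largest absolute log2 fold change among those averaging 1 or more in log2 CPM, plus Polrmt, Tfam, Lrpprc and Polg. Alternatives were RLE size factors, TMM without ribosomal protein genes, total library size, DESeq2 1.42.0, limma-voom (limma 3.58.1), no filter, a filter of 1 CPM in 6 libraries, an offset for gene length, the WT number as a block, a fit to the cell types compared, each library left out in turn and, added after seeing the data, the counts of the nuclear copies added to their members. The WT number stands in the column names with no explanation. Th1 libraries carry 4 and CD8 libraries 2, Th17 libraries carry 1, 2 or 3, and Treg libraries 2 or 3. The scripts were tested on simulated counts.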

Additional observations from a re-analysis of the deposited data

Results flagged for a closer look

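In 6 of 104 groups of 6 libraries, 1 library lay so far from the others that the gap, as a share of the range, exceeded Dixon's critical value for 6 values at 95%; chance alone gives about 1 in 20. All 6 were tRNAs with few counts. In Th17, mt-Tp was at 7.57 CPM in the WMS-75 library and at 2.54 to 4.23 CPM in the others. In Treg, mt-Tl1 was at 4.29 CPM with WMS-76 against 2.40 to 2.81 CPM, mt-Tc at 2.02 CPM with WMS-83 against 0.373 to 0.952 CPM, and mt-Tw at 1.72 CPM with WMS-200 against 0.966 to 1.07 CPM. The same WMS-200 library had 0.181 CPM of mt-Ts2, where the other Treg libraries had 1.00 to 1.23 CPM. In CD8, mt-Tw was at 0 in the WMS-75 library and at 0.401 to 0.603 CPM in the others.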

How the results depend on the processing

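No called result changed direction under any alternative that was run. Without the filter on low counts 34 members were tested, and the number called rose to 5 in CD8 minus Th1, 17 in CD8 minus Th17, 5 in WMS-75 minus DMSO, 8 in WMS-75 minus WMS-64, 5 in WMS-83 minus WMS-75, 7 in the F-test among the agonists, 2 for the agonists in Treg and 4 in the test of agonist by cell type; the cause was not tested. With the replicate block (WT number) it fell to 6 in CD8 minus Th17, was 15 in Treg minus Th17 and was 12 in CD8 minus Treg. What the number stands for is not given, comparisons with Th1 could not be fitted with it, and no treatment call of a member changed. With the block the agonist comparison rests on the WMS-200 library in Treg and on the WMS-83 library in Th17. Numbers of genes called with and without the block are therefore not compared there. Leaving out 1 library at a time gave 0 to 1 called members in CD8 minus Th1, 10 to 16 in CD8 minus Th17, 9 to 13 in CD8 minus Treg, 7 to 14 in Th17 minus Th1, 13 to 16 in Treg minus Th1, 17 to 22 in Treg minus Th17 and 0 in every treatment comparison. The mean share of counts ran from 1.06 to 1.17% in Treg, 0.534 to 0.615% in CD8, 0.448 to 0.512% in Th1 and 0.293 to 0.361% in Th17. Of 1534 values of single genes under the other settings, 78 gained a call, 29 lost one, 1406 kept their direction and side of the threshold and 21 that were not called changed sign without a call. Of 3600 such values with 1 library left out the numbers were 47, 78, 3414 and 61. Depth limits the tRNAs, mt-Nd4l and mt-Atp8, and 1 library per treatment and cell type limits every treatment comparison.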
